A study of Mus musculus with 4 samples.

Results

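Expression of 42 cell cycle genes was examined in immune cells of mouse skin and of skin tumors. The members were listed by name, 19 as genes of S phase, 21 as genes of G2 and mitosis (G2/M), along with Stmn1 and Hmgb2, and all 42 were found by symbol among the 31053 genes of the count matrices. The study sorted live CD45+ cells from control skins of uninoculated C57/BL6 mice and from tumors that grew in C57/BL6 mice about 2 weeks after cells of the 2323 tumor line were injected into the flank, with inoculated mice between 8 and 10 weeks old at injection. The age of the control mice was not given in the sources used here. The 2323 line came from a graft of a tumor of a mouse model with an inducible Cre under a keratin 14 promoter, so all tumors came from 1 line. Each group had 2 libraries, called control skin 1 and 2 and skin tumor 1 and 2, and each was made with 10x Genomics 3′ chemistry. The libraries of a group came from 2 skins or 2 tumors, and whether each came from its own mouse is not given in the sources used here, so p-values measure the spread between these libraries.

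A dividing cell first copies its DNA in S phase and then separates the copies in mitosis. The MCM helicase is loaded on DNA before S phase and opens it, PCNA is the ring that holds DNA polymerases in place, and ribonucleotide reductase and thymidylate synthase supply the nucleotides. Mitosis is driven by CDK1 with cyclins A and B, by Aurora and Polo kinases, and by proteins of the centromere and the spindle. In quiescent cells E2F sites and CHR elements in the promoters hold many of these genes silent, through RB proteins and the DREAM complex, and MYB and FOXM1 take part in switching on the late set. Skin holds immune cells that renew in place, such as Langerhans cells (LC) and dendritic epidermal T cells (DETC), and others that are replaced from blood.

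Promoter sequences are shown for members that the results turn on, since CHR and CCAAT letters were counted in unlike shares of the S and G2/M sets. Of the 42 members, 34 had an entry in the RefSeq promoter table (build GRCm38.p6). In the 250 bases before the start, on both strands, the CHR letters TTTGAA or TTTAAA were found in 12 of 17 G2/M members and in 4 of 16 S members, and in 25.2% of all 32851 promoters. The letters CCAAT were found in 16 of 17 G2/M members and 9 of 16 S members, against 33.8% of all promoters. CHR and CCAAT letters occurred together in 11 of 17 G2/M members and 2 of 16 S members, against 8.78% of all. The E2F letters TTCCCGC, also with GG, CG or GC in place of CC at bases 3 and 4, were found in 6 of 16 S members and 3 of 17 G2/M members, against 7.89% of all. The sequences are the 150 bases next to the start, with capitals marking these letters on either strand. They are Mcm5 (chr8:75109359-75109508, plus strand), Tyms (chr5:30073626-30073775, minus strand) and Rrm1 (chr7:102441545-102441694, plus strand) of the S set, and Top2a (chr11:99024190-99024339, minus strand), Mki67 (chr7:135716380-135716529, minus strand) and Cenpf (chr1:189688087-189688236, minus strand) of the G2/M set.
Mcm5: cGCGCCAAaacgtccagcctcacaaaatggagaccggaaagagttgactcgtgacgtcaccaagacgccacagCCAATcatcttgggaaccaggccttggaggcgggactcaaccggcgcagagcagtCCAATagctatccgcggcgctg
Tyms: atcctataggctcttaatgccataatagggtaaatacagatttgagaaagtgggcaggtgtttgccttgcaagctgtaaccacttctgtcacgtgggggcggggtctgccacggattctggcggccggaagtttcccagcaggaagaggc
Rrm1: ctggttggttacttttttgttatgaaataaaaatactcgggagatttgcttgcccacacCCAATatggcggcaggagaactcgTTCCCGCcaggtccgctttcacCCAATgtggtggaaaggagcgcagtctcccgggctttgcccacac
Top2a: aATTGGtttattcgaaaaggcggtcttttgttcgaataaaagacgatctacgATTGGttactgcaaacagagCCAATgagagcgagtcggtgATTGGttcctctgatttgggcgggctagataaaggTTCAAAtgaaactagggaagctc
Mki67: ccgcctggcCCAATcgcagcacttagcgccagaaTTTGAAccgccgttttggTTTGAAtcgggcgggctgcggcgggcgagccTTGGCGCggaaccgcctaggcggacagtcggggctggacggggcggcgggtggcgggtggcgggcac
Cenpf: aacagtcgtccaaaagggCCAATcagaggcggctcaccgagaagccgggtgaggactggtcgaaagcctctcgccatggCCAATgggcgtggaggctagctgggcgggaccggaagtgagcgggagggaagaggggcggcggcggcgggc

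Mki67 showed 2 CHR matches, 1 CCAAT match and 1 E2F match within the 150 bases. Top2a showed 1 CHR match and 4 CCAAT matches. Mcm5 and Rrm1 showed 2 CCAAT matches and 1 E2F match each, Cenpf showed 2 CCAAT matches, and Tyms showed none of these letters in this window.

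The 4 libraries held 3499, 3862, 5176 and 2258 cells, with 34893543 to 73904272 UMIs each. After filters, removal of 453 doublet candidates and of 262 non-immune cells, 12133 immune cells were kept. Ptprc, which encodes CD45, was present in all libraries at 11.4 to 14.5 UMIs per 10000, while fibroblast genes had 0.04 to 0.12 and keratinocyte genes 0.02 to 0.08. The 262 non-immune cells had been called by these fibroblast and keratinocyte genes, so their low values follow from the removal. Endothelial genes (Pecam1, Cdh5 and Kdr), which no filter used, had 0.43 and 0.37 in control skins, against 0.73 and 0.70 in skin tumors. Of the cell barcodes, 23 occurred in more than 1 library. Cells were placed in classes by marker genes, and 81.0% had a class. The macrophage list had 94.1 UMIs per 10000 in macrophages and at most 12.4 in other classes, and the cDC1 list (Xcr1, Clec9a, Irf8, Tlr3 and Wdfy4) 25.4 in cDC1s and at most 9.29 elsewhere. The same lists set the gates, so these values describe the gates and are no separate check of the classes.

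The 42 genes were sparse in most cells and dense in a few. A cell was called cycling when at least 4 of 2000 UMIs, drawn at random from the cell, came from 39 members, leaving out Stmn1, Hmgb2 and Pcna. Of 11491 immune cells with at least 2000 UMIs, 1091 (9.49%) were called cycling, and 642 shallower cells were left out. The call is a cut through a range and not a cell type. No UMI of the 39 genes was drawn in 46.3% of cells, 645 cells had 3 UMIs, just below the cut, 298 had 4 and 793 had 5 or more. Neutrophils, which do not divide, gave 0% in 3 libraries, of which the one with most cells (0 of 104) allows up to 2.88% (3 cells of the total), and 3.45% in skin tumor 2 (3 of 87 cells), with a median of 2922 to 4291 UMIs per cell. Levels outside the call differed between classes, as given for Cenpa and Rrm1 below, so this rate describes neutrophils and not every class.

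Cells called cycling carried more RNA than other cells of their class. Their median UMI count was 1.60 times that of the other cells in the middle of 27 pairs of class and library, with a range of 0.86 to 3.09, and was higher in 25 of the 27. Of the 453 cells removed as doublet candidates, 60 met the same cut. Thinning gave every cell an equal number of UMIs, and the part of remaining doublets in the call was not tested.

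The G2/M members had a larger part of their UMIs in cycling cells than the S members. These detection values describe the call and carry no test, since 39 of the genes made it. Of the UMIs of a G2/M member, a median of 74.1% lay in cycling cells, from 31.0% for Cenpa to 92.7% for Ccna2 (cyclin A2). For the 19 S members the median was 44.4%, from 17.99% for Pcna to 89.2% for Pclaf, which encodes a PCNA-binding factor. Top2a, the topoisomerase that untangles chromosomes, was detected in 51.6 ± 10.9% of cycling cells and 3.4 ± 0.7% of other cells (SD, n = 4 libraries). Mki67, which encodes the proliferation marker Ki67, was detected in 38.6 ± 7.1% and 3.4 ± 0.5%. Kif20a and Plk1 were thinly covered, with 31 and 47 UMIs in all thinned cells.

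**Figure D1:**
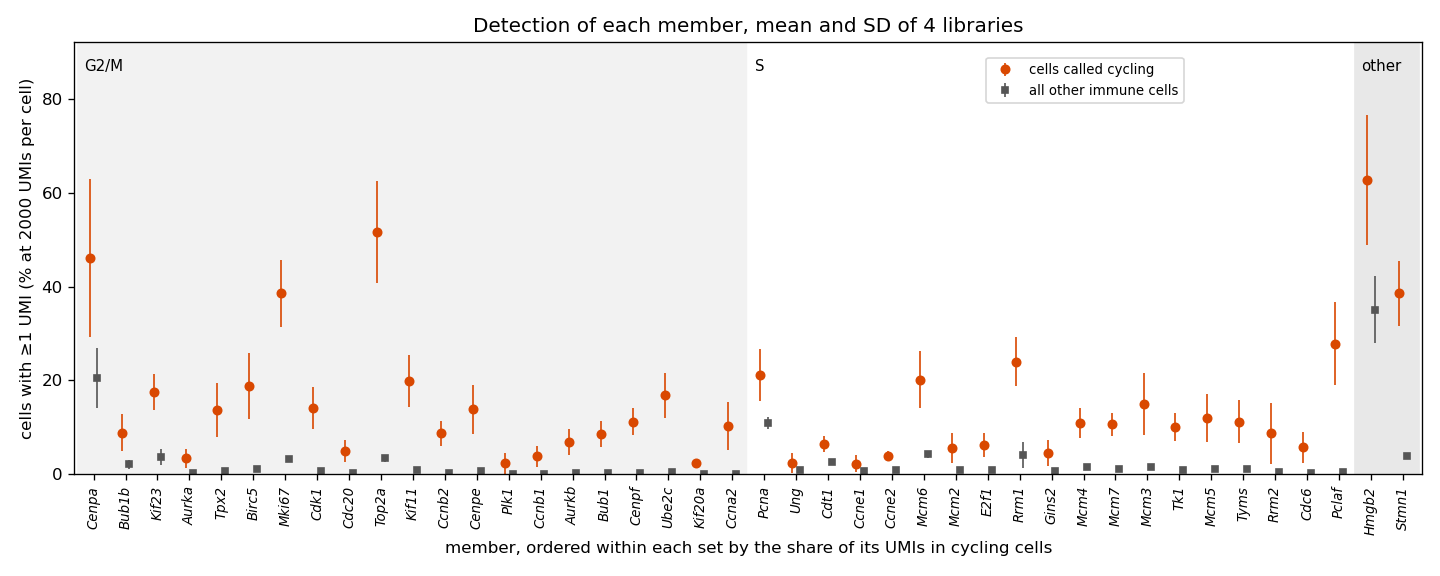
Percent of cells with at least 1 UMI of each member after thinning to 2000 UMIs per cell, in cells called cycling and in all other immune cells (points are means and bars the SD of 4 libraries). Pclaf was found in 27.9% of cycling and 0.53% of other cells, while Cenpa reached 20.5% and Hmgb2 35.1% of the other cells.

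A few members were common outside the call. Cenpa, which encodes the centromeric histone, was found in 38.5% of the 1081 DETCs that were not called cycling, against 13.3% of such macrophages and 8.96% of such neutrophils. Rrm1, the large subunit of ribonucleotide reductase, was found in 16.6% of these DETCs, 13.8% of such dermal γδT cells and 0.653% of such cDC2s. Mcm6, a helicase subunit, was found in 18.6% of NK cells outside the call. Without Cenpa in the call, an alternative added after its level in these cells was seen, 146, 156, 429 and 84 cells of the 4 libraries were called in place of 252, 261, 477 and 101. The share of DETCs called cycling went from 13.8% and 18.7% in the control skins to 5.54% and 8.60%.

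Over all immune cells, the share called cycling was 9.30% (95% interval 8.23 to 10.5%) and 9.55% (8.47 to 10.7%) in the control skins, and 11.1% (10.2 to 12.1%) and 5.75% (4.70 to 6.94%) in the skin tumors. Here and below intervals are Clopper-Pearson and cover counting error only. The tumors lay on either side of the controls, and the difference of means was -0.99 percentage points (exact permutation p = 1, two-sided, n = 2 libraries per group, where the smallest possible p is 0.33). At full depth, with a cut at 0.2% of a cell's UMIs, the shares were 6.46% and 5.84% against 9.25% and 5.31%. Without Cenpa they were 5.39% and 5.71% against 10.0% and 4.78%, and the difference was 1.84 percentage points (exact permutation p = 1). Relative to all UMIs of a library, in CPM, the members summed to 1240 and 1241 in control skins, against 1766 and 1179 in the tumors.

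The cycling cells of the 2 groups belonged to different classes. DETCs made up 40.6 ± 9.7% of the cycling cells of control skins (SD, n = 2) and 23.5 ± 1.1% of their immune cells, followed by cells gated by markers of group 2 innate lymphoid cells (ILC2-gated cells) with 13.9 ± 6.7% of cycling cells, αβT cells with 11.2 ± 7.2% and LCs with 6.21 ± 2.05%. Of the immune cells of control skins, ILC2-gated cells were 13.8 ± 5.2%, αβT cells 8.68 ± 5.04% and LCs 11.9 ± 1.4%. Without Cenpa in the call, DETCs made up 23.3% and 36.5% of the cycling cells of control skins 1 and 2, against 22.6% and 24.3% of the immune cells, so that in control skin 1 the part was near that of all cells. In skin tumors macrophages made up 28.2 ± 4.9% of the cycling cells, below their 38.5 ± 4.5% of immune cells, αβT cells 22.8 ± 11.3%, Tregs 6.34 ± 3.63%, cDC2s 6.11 ± 0.25%, and monocyte-like cells and cDC1s 5.28 ± 0.94% each. Of the immune cells of the tumors, αβT cells were 11.1 ± 1.3%, Tregs 3.27 ± 0.84%, cDC2s 6.12 ± 0.19% and monocyte-like cells 11.3 ± 1.2%. The cDC1s were only 1.21 ± 0.43% of them. Of DETCs, skin tumor 1 held 1 and skin tumor 2 held 20.

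**Figure D2:**
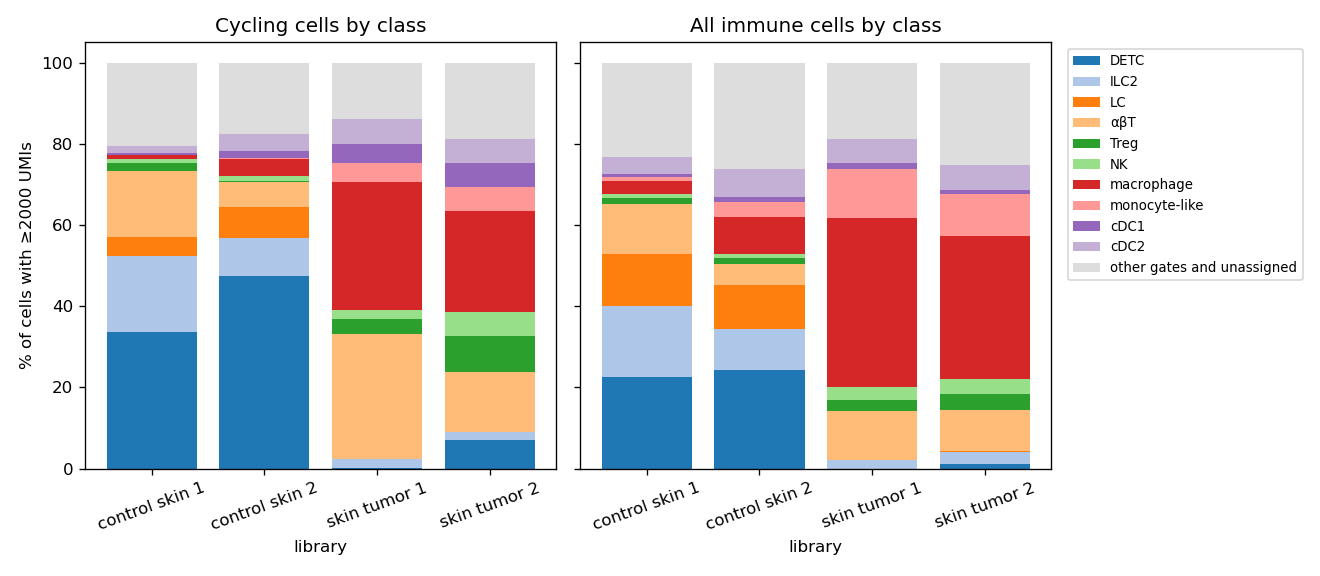
Class makeup of the cells called cycling (left) and of all immune cells with at least 2000 UMIs (right), as stacked percent in each of the 4 libraries. DETCs are the largest part of the cycling cells in both control skins, and macrophages the largest part in both skin tumors (28.2 ± 4.9%, SD, n = 2).

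The difference in the total share was split, as a description, into a part from the share within classes and a part from the mix of classes. Over the 4 pairs of a control skin and a skin tumor, the part within classes was 1.26 to 6.97 percentage points, tumor minus control, and the part from the mix was -5.17 to -4.57. The DETC term of the latter was -6.88 to -5.25. The part within classes held a DETC term of 2.07 to 2.75, which rests on the 20 DETCs of skin tumor 2 (7 called) and the 1 of skin tumor 1. Without that term it was 4.22 and 3.76 for skin tumor 1 against the 2 controls and -1.25 and -0.69 for skin tumor 2, so its sign was not shared by the tumors. Without Cenpa in the call, the part from the mix was between -1.46 and -0.38 and the part within classes 0.54 to 5.88. The latter again held a DETC term, 0.69 to 1.13, and without it was 4.89 and 3.98 for skin tumor 1 and -0.37 and -0.27 for skin tumor 2.

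Shares were then compared within each class. None of the 8 classes with enough cells passed the test (edgeR quasi-likelihood test on cell numbers, Benjamini-Hochberg over 8 classes, 0% called by this test), and values are given for each. The cDC1s, dendritic cells that present antigen to CD8 T cells, had the highest tumor shares of the antigen-presenting cells: 5.00% (1 of 20 cells) and 11.4% (4 of 35) in control skins, against 33.8% (22 of 65) and 37.5% (6 of 16) in skin tumors. The groups did not overlap, and the log2 difference was 1.94 (SE 0.76, edgeR adjusted p = 0.176). Leaving out Cenpa changed 1 call among these cells, and the shares became 5.00% and 11.4% against 32.3% and 37.5%. At full depth they were 10.0% and 8.57% against 29.2% and 50%, and the edgeR adjusted p was 0.0467. Without skin tumor 2 the adjusted p was 0.0276, with the lone tumor taken to vary like the controls.

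In monocyte-like cells, 0 of 30 and 1 of 102 control cells were cycling, the first of which allows a share of up to 10.0% (3 cells of the total), against 4.21% (22 of 522) and 3.26% (6 of 184) in the tumors. The log2 difference was 2.27 (SE 1.18, edgeR adjusted p = 0.283). Macrophages had 3.57% and 4.4% in control skins, against 8.45% and 4.03% in skin tumors, so the groups overlapped (log2 difference 0.63, SE 0.61, edgeR adjusted p = 0.423). The cDC2s had 3.54% and 5.98% against 11.7% and 5.45%, also with overlap. For both classes the difference rested on skin tumor 1. Without skin tumor 2 the log2 differences were 1.01 and 1.20 (edgeR adjusted p = 0.0276 for each), and without skin tumor 1 they were -0.06 and 0.11. Mature dendritic cells (mDC) showed 1 cycling cell of 114, in control skin 1. LCs, which were almost absent from tumors, had 3.45% and 6.73% in control skins.

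Among lymphocytes, αβT cells had 12.3% (41 of 332) and 11.4% (16 of 140) in control skins, and 28.4% (147 of 517) and 8.38% (15 of 179) in skin tumors. Skin tumor 1 stood above every other library and skin tumor 2 below them all. The log2 difference was 0.68 (SE 0.52, edgeR adjusted p = 0.341), and it was 1.23 (edgeR adjusted p = 0.00135) without skin tumor 2 and -0.52 (0.385) without skin tumor 1. The high value lay in cells with Cd8a or Cd8b1 UMIs and no Cd4, of which 43.5% (127 of 292, 37.7 to 49.4%) were cycling in skin tumor 1, against 15.2% and 12% in control skins and 10.2% (5 of 49) in skin tumor 2. Cells with Cd4 alone had 14.3% and 21.1% against 10% and 7.37%, with both tumors below both controls. Cells with neither had 7.89% and 4% against 5.62% and 6.90%. These splits by Cd8 and Cd4 were not tested. They used all UMIs of a cell, and in skin tumor 1 the median depth was 19093 UMIs in cycling αβT cells, against 7700.5 in the others. The part of depth in the splits was not tested. Tregs had 12.5% and 2.33% in control skins, from 5 of 40 and 1 of 43 cells, and 15.7% and 13.2% in skin tumors (log2 difference 0.98, SE 0.74, edgeR adjusted p = 0.341).

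NK cells had 6.90% and 12% against 7.46% and 9.38%, from 2 to 10 cycling cells a library, and ILC2-gated cells had 9.96% and 8.70% against 11.1% and 3.85%. Their log2 differences were -0.17 (SE 0.83) and -0.21 (SE 0.63), with an edgeR adjusted p of 0.838 for each. Without Cenpa both turned in sign, to 0.07 and 0.18. The median depth of ILC2-gated cells was 4538 and 5277 UMIs in control skins, against 2692 and 2725 in skin tumors, and its part in these values was not tested. Mast cells, few in number, had 20%, 3.85%, 7.41% and 15%, from 1 to 3 cycling cells a library.

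**Figure D3:**
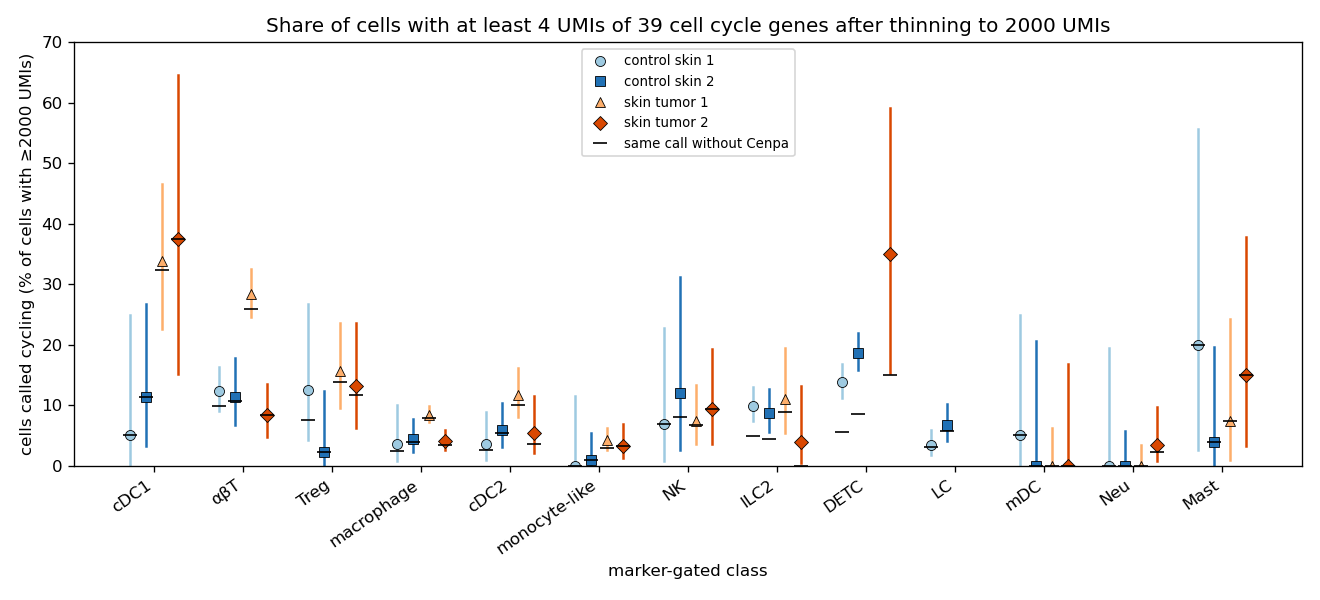
Percent of cells called cycling in each class and library, with 95% Clopper-Pearson intervals and, as black dashes, the same call without Cenpa; classes with fewer than 10 deep cells in a library have no point there. In cDC1s the tumors (33.8% and 37.5%) lie above the controls, in αβT cells skin tumor 1 stands alone at 28.4%, and in the control skins the dashes for DETCs (5.54% and 8.60%) lie below the points (13.8% and 18.7%).

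The balance of S and G2/M transcripts was compared in cycling cells. The S members gave 27.6% and 24.5% of the UMIs of the 39 genes in cycling cells of control skins and 34.8% and 34.98% in those of skin tumors. The difference was 8.83 percentage points and the groups did not overlap (exact permutation p = 0.33, two-sided, the smallest this design allows). Cells with UMIs of both sets were 70.6% and 72.4% of cycling cells in control skins, against 80.1% and 78.2% in skin tumors. The median depth of cycling cells was 12282.5 and 15664 UMIs in control skins, against 19694 and 19202 in skin tumors, and its part in these values was not tested. The cycling cells of the 2 groups also belonged to different classes, and the part of this in the total was not tested. Within classes the balance differed widely. DETCs, the largest class of cycling cells in control skins, had 30.4% and 23.6% S transcripts there, against 24.1% in the 7 of skin tumor 2. LCs of control skins had 20.5% and 12.3% S transcripts and ILC2-gated cells 19.3% and 27.6%, while αβT cells had 31.5% and 28.0% in control skins, against 32.9% and 41.5% in skin tumors. Cycling macrophages had 34.7% and 36.6% in skin tumors, and the 11 of control skin 2 had 53.0%.

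UMIs were next summed over all immune cells of a library or over a class, and each gene was tested between groups (edgeR quasi-likelihood test, adjusted over all genes tested, threshold 0.05). Levels of genes are given as CPM with TMM scaling within each test. Where UMIs are given instead, the summed UMIs of a class differ between libraries, so those UMIs do not compare levels. The count filter kept a gene with enough counts in as many libraries as a group holds. A member almost absent from a group could enter through the group where it was high, and could hardly be called the other way. Counts of members called higher and lower are thus no test of direction. In sums over a library, fewer cells of a type and less RNA per cell cannot be told apart. Counts of called members under other settings, such as leaving out 1 library, are given below without the share of all genes called there. They describe how far the calls moved and are no result about the members. Over all immune cells, of 42 members tested, 1 rose (Bub1b) and 3 fell (Cenpa, Rrm1 and Ung). Of all genes 12.3% were called higher and 15.9% lower, so that both counts lay below the share of all genes. Cenpa went from 235 and 243 in control skins to 104 and 106 in skin tumors, with no overlap (log2 fold change -1.19, SE 0.12, edgeR adjusted p = 0.0057). Rrm1 went from 61.7 and 53.1 to 28.7 and 18.8 (-1.27, SE 0.24, edgeR adjusted p = 0.0214). Ung, a glycosylase that removes uracil from DNA, went from 7.37 and 5.71 to 3.41 and 2.43 (-1.15, SE 0.29, edgeR adjusted p = 0.0422). Bub1b, a protein of the spindle checkpoint, went from 10.03 and 11.5 to 26.7 and 18.3 (1.07, SE 0.23, edgeR adjusted p = 0.0302).

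Cenpa was not called in any of the 10 gated classes that tested it, with log2 fold changes of -1.005 (mDC) to -0.05 (NK), all negative. The class with most Cenpa outside the call, the DETCs, made up 23.5% of control and 0.58% of tumor cells. The part of the class mix in the fall of Cenpa was not tested. Mki67 had 60.4 and 68.5 against 85.8 and 56.5 and Top2a 80.5 and 80.1 against 107.9 and 60.6, so that the tumors lay on both sides of the controls. Pcna had 85.7 and 85.8 against 71.1 and 75.2, Mcm5 8.65 and 10.7 against 20.03 and 13.6, and Tyms 11.3 and 10.03 against 20.1 and 15.03, none of which passed the test (edgeR adjusted p = 0.185, 0.070 and 0.055). The median log2 fold change of the 42 members was 0.53, beside 0.05 for all 15888 genes. The count of called members moved with the library left out and was highest without skin tumor 2, where most were called higher. The share of all genes called in those settings was not set beside it.

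The cDC1s had the most members called higher, 5 of the S set and Stmn1. Of 35 members tested, 6 rose and 0 fell, where 1.16% of all genes were called higher and 2.85% lower. All 42 members together had 1362 and 1774 CPM in control skins, against 3240 and 5011 in skin tumors. Of the helicase, Mcm5 (chr8:75109569-75128439) had 5.36 and 10.9 in control skins, from 2 and 9 UMIs, and 51.4 and 51.8 in skin tumors (log2 fold change 2.52, SE 0.45, edgeR adjusted p = 0.0301). Both subunits of ribonucleotide reductase rose. Rrm2 (chr12:24708241-24714146) went from 5.36 and 8.45 to 59.4 and 102.1 (3.40, SE 0.50), and Rrm1 (chr7:102441695-102469771) from 13.4 and 14.5 to 61.3 and 58.3 (2.08, SE 0.38), with edgeR adjusted p = 0.0207 and 0.0301. Tyms, thymidylate synthase, went from 16.1 and 12.1 to 53.7 and 82.6 (2.29, SE 0.43, edgeR adjusted p = 0.0352). Mcm5 and Rrm2, low in both controls, passed the count filter through the tumor libraries.

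Pclaf, the PCNA-binding factor, went from 42.9 and 41.0 to 195 and 293 in cDC1s (2.53, SE 0.32, edgeR adjusted p = 0.0142). Stmn1, a microtubule destabilizer that other cells express too, went from 96.5 and 89.3 to 210 and 326 (1.52, SE 0.31, edgeR adjusted p = 0.0414). In these 6 genes both tumors lay above both controls. Mki67 had 99.2 and 82.0 against 131 and 237, Top2a 61.6 and 118 against 204 and 352, and Pcna 32.2 and 72.4 against 82.7 and 104, without a call (edgeR adjusted p = 0.131, 0.068 and 0.281). Of the 18 G2/M members tested in cDC1s, 0 were called, and 5 of 15 S members were. The median log2 fold change was 1.03 in the G2/M and 2.04 in the S members tested, beside -0.0057 for all 7135 genes. Members could enter through the tumor libraries, so these medians are no test of either set. The cells were few, 20, 35, 65 and 16 a library, and the count of called members was 1, 0, 12 and 7 without control skin 1, control skin 2, skin tumor 1 and skin tumor 2.

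Marker lists of other classes were measured in the cycling cDC1s. The cDC1 gate used the cDC1 and macrophage lists and left out cells with CD3, so these values are no separate check of the class. In skin tumors 1 and 2 the cDC1 list had 25.4 and 25.4 UMIs per 10000 in cycling cDC1s and 31.9 and 22.6 in the others, the macrophage list 1.24 and 2.65 against 1.91 and 2.69, and the αβT list 0.02 and 1.37 against 0.04 and 0.36. The median depth of cDC1s was 23858.5 and 24413 UMIs in control skins, against 32038 and 32223.5 in skin tumors, and its part was not tested.

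In NK cells 4 of 16 members tested rose and 0 fell, where 1.07% of all genes were called higher and 1.08% lower. Top2a went from 35.8 and 47.8 to 106 and 172 (log2 fold change 1.71, SE 0.36, edgeR adjusted p = 0.0346) and Mki67 from 46.6 and 25.7 to 100.1 and 156 (1.79, SE 0.39, edgeR adjusted p = 0.0364). Pclaf had 0 and 3 UMIs in control NK cells and 73 and 55 in tumor NK cells, and Cenpe, a centromere motor, 1 and 0 against 31 and 23. Both were called (edgeR adjusted p = 0.0217 and 0.0489), with fitted folds that depend on the prior count. Both passed the count filter through the tumor libraries. The summed UMIs of NK cells were larger in the tumors. Ccnd2, at 240 and 305 CPM against 267 and 270, had 67 and 83 UMIs against 307 and 173. Pcna had 89.6 and 84.5 against 90.5 and 92.1, and Mcm5 7.17 and 18.4 against 30.5 and 26.5, without a call, and Tyms, with 3 and 0 UMIs in controls and 24 and 27 in tumors, did not pass the count filter. The control NK cells were 30 and 25 in number, and their median depth was 10436 and 11548 UMIs, against 6904 and 7849 in tumors. No member was called without control skin 1 or without doublet removal, 1 was called without control skin 2, 6 without skin tumor 1, and 1 (Pclaf) by DESeq2.

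In Tregs 2 of 28 members tested rose, where 2.61% of all genes were called higher and 4.18% lower. Cenpf, a kinetochore protein, went from 5.66 and 6.09, with 3 UMIs in each control, to 33.3 and 44.5 (log2 fold change 2.68, SE 0.51, edgeR adjusted p = 0.0171). It passed the count filter through the tumor libraries. Hmgb2, a chromatin protein that cells outside the cycle also express, went from 432 and 323 to 1270 and 959 (1.56, SE 0.26, edgeR adjusted p = 0.0102). It was left out of the cycling call, and was found in 56.7% of the 233 Tregs not called cycling. Mki67 had 158 and 56.9 against 310.0 and 215 and Top2a 256 and 75.2 against 377 and 214, with the 2 control skins far apart. Pcna had 99.96 and 85.3 against 83.6 and 110.1, Mcm5 20.7 and 14.2 against 41.4 and 26.0, and Tyms 35.8 and 14.2 against 47.9 and 47.0, none of which was called. The count was 10, 1, 3 and 13 without control skin 1, control skin 2, skin tumor 1 and skin tumor 2, and 5 without doublet removal.

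In αβT cells, 40 members were tested and Mcm5 alone was called, where 3.63% of all genes were called higher and 5.19% lower. The part of members called higher thus did not lie above the share of all genes. Mcm5 went from 13.8 and 12.8 to 50.3 and 33.9 (log2 fold change 1.67, SE 0.29, edgeR adjusted p = 0.0232), with both tumors above both controls. Tyms had 18.6 and 12.8 against 62.1 and 28.2 (1.52, SE 0.42, edgeR adjusted p = 0.073). Mki67 had 112 and 159 against 273 and 119, Top2a 178 and 190.1 against 377 and 135, and Pcna 116 and 115 against 107 and 90.4. For Mki67 and Top2a skin tumor 2 fell among or below the controls. The calls moved with the library left out, toward more members called higher without skin tumor 2. The Mcm5 call was lost without either control skin. The share of all genes called in those settings was not set beside these calls.

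In macrophages 0 of 42 members were called, where 0.422% of all genes were called higher and 0.624% lower. An unadjusted edgeR p under 0.05 was found for 4 of the 42 members, beside 1814 of all 12333 genes. DESeq2 called 0 as well. The median log2 fold change of the members was 0.38, beside 0.04 for all 12333 genes. Mki67 had 43.1 and 37.2 against 61.1 and 42.7 and Top2a 40.4 and 34.1 against 70.3 and 37.2, so that skin tumor 2 lay between the controls. Mcm5 had 3.31 and 15.4 against 15.9 and 10.8, Tyms 9.28 and 8.72 against 13.3 and 10.4, and Pcna 90.8 and 93.4 against 72.0 and 79.6. Leaving out either skin tumor gave calls, higher without skin tumor 2 and lower without skin tumor 1. The share of all genes called in those settings was not set beside them.

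In monocyte-like cells Top2a rose, 1 of 22 members tested, where 0.269% of all genes were called higher and 0.123% lower. It had 2.19 and 5.05 in control skins, from 1 and 6 UMIs, and 33.6 and 34.9 in skin tumors (log2 fold change 3.02, SE 0.44, edgeR adjusted p = 0.0425). Top2a passed the count filter through the tumor libraries. Mki67 had 2.19 and 3.37 against 25.1 and 20.2 (edgeR adjusted p = 0.068), Mcm5 2.19 and 4.21 against 10.3 and 12.4, Tyms 4.38 and 1.68 against 14 and 6.99, and Pcna 52.6 and 62.3 against 55.5 and 67.9. The Top2a call was lost without either control skin and with a limit of 5% on mitochondrial UMIs, and the count of called members was 3 and 7 without skin tumor 1 and skin tumor 2.

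In cDC2s 0 of 34 members tested were called (DESeq2 also called 0), where 1.85% of all genes were called higher and 2.85% lower. An unadjusted edgeR p under 0.05 was found for 5 of the 34 members, beside 2223 of all 10069 genes. Mki67 had 33.8 and 38.9 against 64.3 and 40.2, Top2a 41.1 and 56.9 against 84.7 and 31.7, and Pcna 79.3 and 70.1 against 56.0 and 64.5. Mcm5 had 9.79 and 16.7 against 17.95 and 8.43 and Tyms 10.3 and 9.97 against 15.04 and 4.46, with skin tumor 2 the lowest library for both. Leaving out either skin tumor gave calls, mostly higher without skin tumor 2 and lower without skin tumor 1. The share of all genes called in those settings was not set beside them. In mDCs 0 of 4 members tested were called (3.45% of all genes higher, 4.35% lower), with Mki67 at 18.51 and 2.89 against 25.8 and 24.0 and Pcna at 43.2 and 26.0 against 28.9 and 53.3, and Mcm5, Tyms and Top2a did not pass the count filter. Neutrophils had 0 of 4 called (0% of all genes in either direction) and mast cells 0 of 7 (2.36% higher and 1.62% lower). Of the genes named throughout, neutrophils tested only Pcna (41.7 and 20.2 against 39.99 and 29.3), and mast cells Pcna (195 and 169 against 134 and 98.6), Top2a (282 and 69.0 against 165 and 266) and Mki67 (152 and 69.0 against 185 and 168). DESeq2 called 0 members in these 3 classes too. An unadjusted edgeR p under 0.05 was found for 1, 0 and 1 members, beside 1148 of 5195, 219 of 3411 and 430 of 2288 genes in turn.

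Members were called lower in the ILC2-gated cells, whose tumor cells went against the name. The gate took cells with little or no CD3, by a list of 7 genes (Gata3, Il5, Il13, Il7r, Rora, Il1rl1 and Areg) that Tregs express in part. Of 23 members tested, 4 fell and 0 rose, where 12% of all genes were called higher and 12.2% lower, so that the share called lower was near that of all genes. Stmn1 went from 96.6 and 70.4 to 16.2 and 12.9 (log2 fold change -2.50, SE 0.38, edgeR adjusted p = 0.0016). Mcm7, of the helicase, had 17.5 and 15.2 against 4.63 and 3.23, from 2 and 1 UMIs in the tumors (-2.01, SE 0.65, edgeR adjusted p = 0.0498). Pcna went from 61.2 and 72.3 to 37.1 and 22.6 (-1.11, SE 0.32, edgeR adjusted p = 0.0328). Pclaf had 55 and 32 UMIs in control skins, against 2 and 0 in skin tumors (edgeR adjusted p = 0.0463), with a fitted fold that depends on the prior count. Mcm7 and Pclaf passed the count filter through the control skins. The summed UMIs of this gate were far smaller in the tumors, so the UMIs given overstate the contrast. Ccnd2, at 170 and 168 CPM against 225 and 190, had 554 and 354 UMIs against 97 and 59.

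The marker levels of these cells moved with the groups. The ILC2 list had 73.3 and 77.1 UMIs per 10000 in control skins, against 47.9 and 55.4 in skin tumors, and the Treg list (Foxp3, Ctla4, Ikzf2 and Il2ra) 18.7 and 18.8 against 84.0 and 79.4, beside 69.7 to 90.3 in Tregs. Il5, a defining cytokine of ILC2s, was found in 26.7% and 32.1% of control and 0.86% and 2.41% of tumor cells, and Foxp3, the factor that defines Tregs, in 5.76% and 5.25% against 24.1% and 15.7%. The tumor cells in this gate thus had more UMIs of the Treg list than of the ILC2 list, and the part of this in the 4 calls was not tested beyond leaving out cells with a Foxp3 UMI, an alternative added after these levels were seen. That left 88 and 70 tumor cells and 3 called members, all lower: Stmn1 and Pcna, which were among the 4, and Mcm4. There Mcm7 and Pclaf were not called (edgeR adjusted p = 0.064 and 0.051).

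The 10 G2/M members tested in the ILC2-gated cells were not called. Mki67 had 62.7 and 59.5 against 85.7 and 45.2, Top2a 136 and 108.0 against 64.9 and 96.8, and of the S set Mcm5 had 9.84 and 9.99 against 4.63 and 6.45. Tyms did not pass the count filter. The tumor cells in this gate were 116 and 83 in number. The count of called members was 1 without either control skin, 4 without skin tumor 1 and 2 without skin tumor 2, and DESeq2 called 1, Stmn1.

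**Figure D4:**
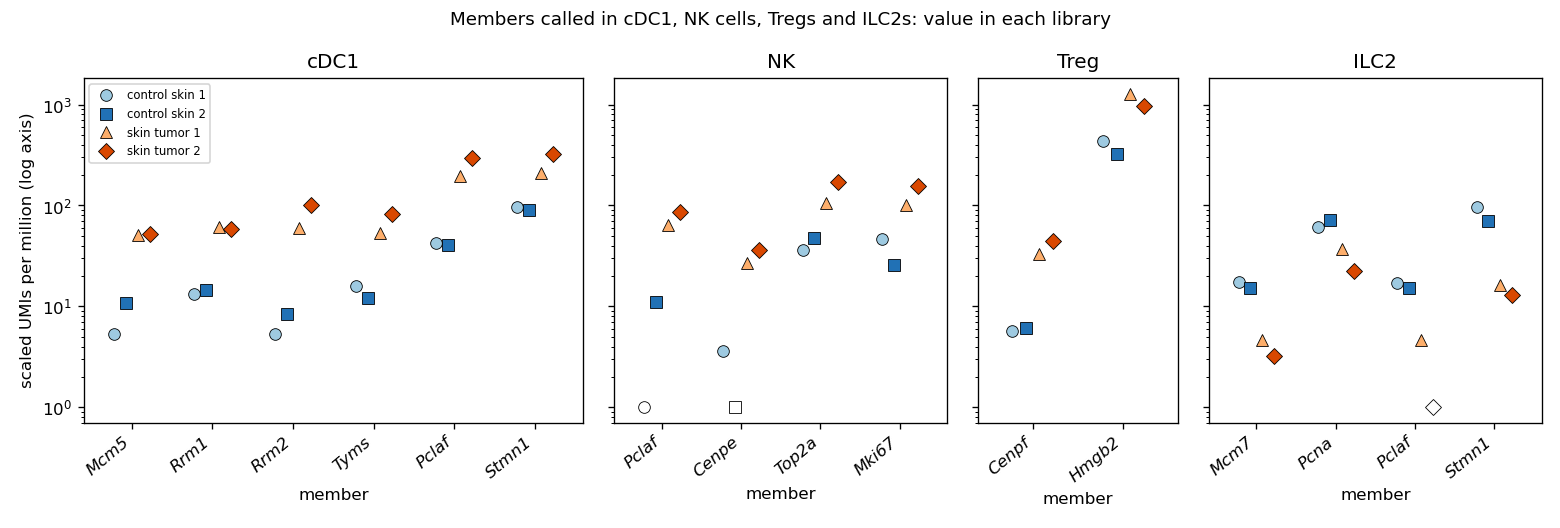
Level in CPM (log axis) in each library for the members called in cDC1s, NK cells, Tregs and ILC2-gated cells; open symbols at 1 stand for a level of 0. In the first 3 classes both tumors lie above both controls, as for Rrm2 in cDC1s (5.36 and 8.45 against 59.4 and 102.1), and in ILC2-gated cells both lie below, as for Stmn1.

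**Figure D5:**
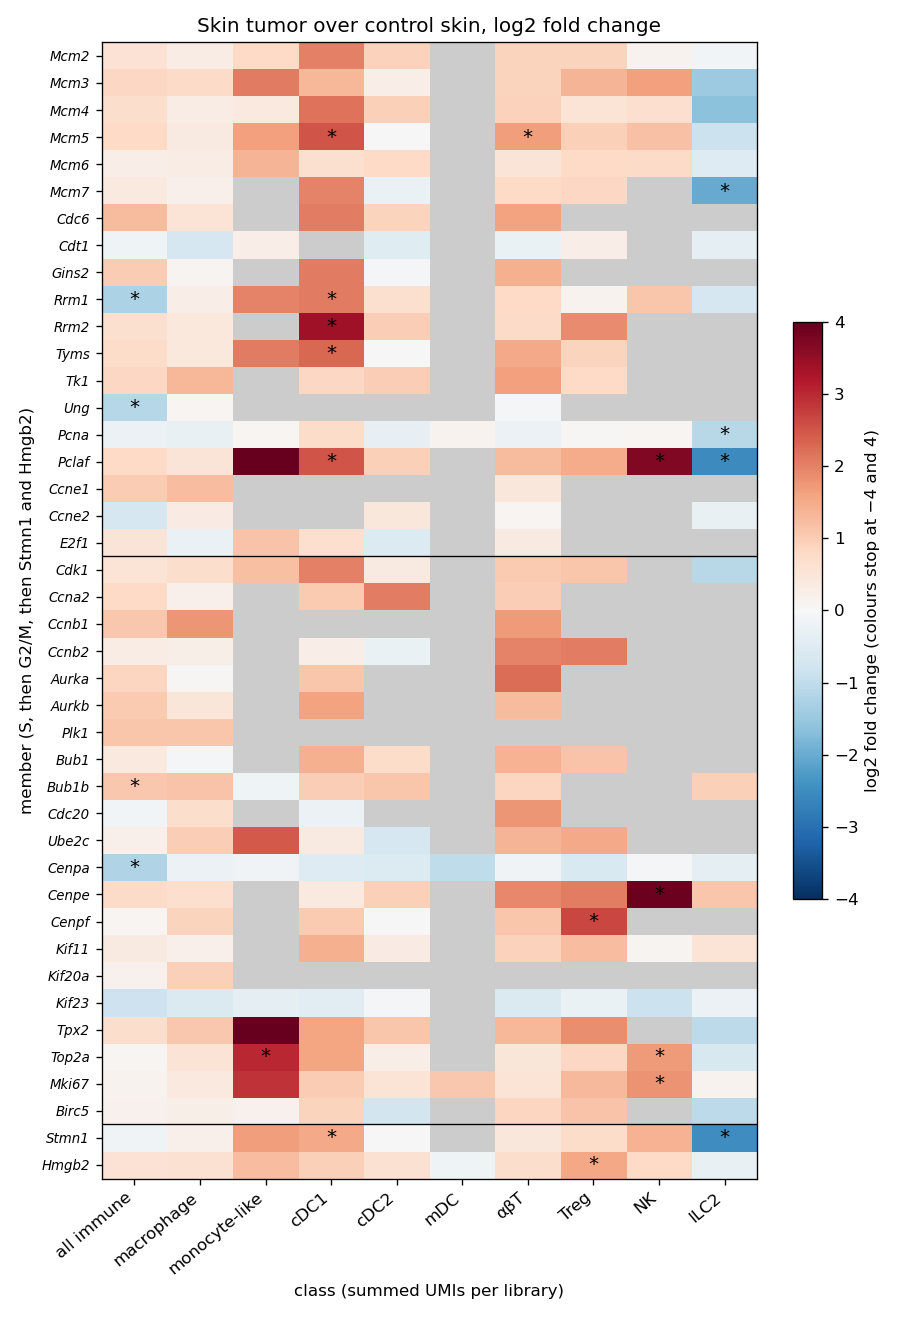
Log2 fold change of skin tumor over control skin for each member (vertical) in all immune cells and in 9 classes (horizontal); stars mark an edgeR adjusted p under 0.05 and gray marks members removed by the count filter. The cDC1 column holds 6 stars, in Mcm5, Rrm1, Rrm2, Tyms, Pclaf and Stmn1, and the macrophage column none.

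Whether macrophages and αβT cells differed in the tumor effect was tested as an interaction. It called 0 of 42 members (DESeq2 also called 0), where 0.499% of all genes were called higher in macrophages and 0.299% lower. An unadjusted edgeR p under 0.05 was found for 3 of the 42 members, beside 1630 of all 12025 genes. The difference of log2 fold changes, macrophages minus αβT cells, was -1.03 for Mcm5, -1.06 for Tyms, 0.21 for Top2a, -0.02 for Mki67 and -0.0047 for Pcna. Without skin tumor 1, 1 member was called higher, and without skin tumor 2, 3 were called lower.

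Other genes of the cycle were counted in lists of replication genes, mitosis genes and regulators. In cDC1s 8 of 33 further replication genes tested and 7 of 63 further mitosis genes rose and 0 fell, beside the 1.16% of all genes called higher. Prim1, a primase subunit, went from 2.68 and 2.41 CPM in control skins to 69.0 and 42.1 in skin tumors (log2 fold change 4.44, SE 0.59, edgeR adjusted p = 0.0157). Of the mitosis genes, Cenpm went from 0 and 1.21 to 20.4 and 40.5 (4.93, SE 0.92, edgeR adjusted p = 0.0336). Neil3 went from 0 and 2.41 to 26.6 and 42.1 (4.24, SE 0.76, edgeR adjusted p = 0.0301). The control skins held 0 to 2 UMIs of each of these genes, so the fitted folds depend on the prior count. They passed the count filter through the tumor libraries. A gene almost absent from a group could enter that way, so counts called higher and lower, here and below, are no test of direction. Dut, which clears dUTP, was called higher in cDC1s, αβT cells and Tregs (2.25, 1.37 and 1.55). It is named in all 3 because it recurred, a choice made after its values were seen. In αβT cells 3 of 41 replication genes and 2 of 85 mitosis genes rose, beside 3.63% of all genes called higher, in Tregs 3 of 28 and 2 of 57, beside 2.61%, and 0 fell in either. For the mitosis genes these parts were near the share of all genes or below it. The edgeR test called 0 genes of both lists in macrophages, monocyte-like cells and NK cells. In macrophages 2 of 42 replication and 2 of 92 mitosis genes had an unadjusted p under 0.05, beside 1814 of all 12333 genes. In monocyte-like cells 1 of 22 and 11 of 38 did, beside 1163 of 8915 genes. In NK cells 6 of 17 and 9 of 28 did, beside 862 of 5718 genes. In ILC2-gated cells 8 of 54 mitosis genes fell and 5 rose, near the 12.2% and 12% of all genes called lower and higher, among the latter Kif20b, a mitotic kinesin (2.47, SE 0.44), and 1 of 23 replication genes fell, the helicase gene Blm (-2.32, SE 0.32). Over all immune cells 5 replication genes rose and 2 fell of 42, and 2 mitosis genes rose and 3 fell of 92, against 12.3% of all genes called higher and 15.9% lower, so that none of these counts lay above the share of all genes.

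D cyclins, which start the cycle with CDK4 and CDK6, were compared next. Ccnd2 is described by class because it was called in 5 of 12 tests, a choice made after its values were seen. In macrophages it went from 21.2 and 16.7 to 78.4 and 55.5 (log2 fold change 1.85, SE 0.26, edgeR adjusted p = 0.0418). In cDC2s it went from 19.1 and 20.9 to 129.5 and 87.3 (2.44, SE 0.26, edgeR adjusted p = 0.0108), in mDCs from 86.4 and 37.5 to 218 and 307 (2.03, SE 0.40, edgeR adjusted p = 0.0145), and in cDC1s from 8.04 and 4.83 to 108 and 76.2 (3.95, SE 0.46, edgeR adjusted p = 0.0119). All 4 classes had both tumors above both controls. In cDC1s, with 3 and 4 UMIs in control skins, Ccnd2 passed the count filter through the tumor libraries. In Tregs both tumors lay below both controls (460 and 414 against 310 and 281, log2 fold change -0.56, SE 0.21), without a call (edgeR adjusted p = 0.152). In αβT cells (215 and 199 against 196 and 236) and NK cells (240.04 and 305 against 267 and 269.96) the groups overlapped, in monocyte-like cells (8.76 and 26.9 against 95.6 and 59.4) they did not but no call was made (edgeR adjusted p = 0.117), and over all immune cells Ccnd2 fell (-0.72, SE 0.14, edgeR adjusted p = 0.0233).

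In αβT cells Cdk6 rose from 85.7 and 88.3 to 285 and 260.3 (log2 fold change 1.65, SE 0.17, edgeR adjusted p = 0.0072), while Ccnd1 fell from 12.6 and 15.7 to 3.31 and 2.26 (-2.22, SE 0.42, edgeR adjusted p = 0.029). Of the CDK inhibitors, Cdkn2d fell in αβT cells (-0.83, SE 0.19) and ILC2-gated cells (-1.26, SE 0.37). Over all immune cells 2 of 8 CDK inhibitors rose and 2 fell. Cdkn2a rose from 1.57 and 0.93 to 9.15 and 18.2 (3.44, SE 0.47, edgeR adjusted p = 0.0113). Cdkn2b rose too (2.01, SE 0.53), while Cdkn1b (-0.70, SE 0.13) and Cdkn2d (-1.03, SE 0.12) fell. Cdkn2a was called in no gated class, and the part of the class mix in its rise was not tested. Of all genes, 12.3% were called higher and 15.9% lower over all immune cells, and 12% and 12.2% in ILC2-gated cells. The shares were 3.63% and 5.19% in αβT cells and 2.61% and 4.18% in Tregs. Of the RB and E2F family, Rb1 fell in all immune cells (-1.54, SE 0.13) and in Tregs (-1.10, SE 0.24), and E2f3 rose in αβT cells (0.95, SE 0.22) and ILC2-gated cells (0.99, SE 0.25). Of MuvB, MYB and FOXM1 genes, Lin54 fell in all immune cells (-1.69, SE 0.20) and αβT cells (-0.84, SE 0.17).

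The same lists were set against the call itself, as a description with no test. All cycling cells of a library were compared with all its other immune cells, whatever their class. The part of the class mix in these levels was not tested, and no share of all genes was set beside the counts. Levels in cycling cells were above those in other cells in all 4 libraries for 42 of 42 further replication genes, 89 of 92 further mitosis genes, 7 of 7 genes of MuvB, MYB and FOXM1, and 10 of 12 of the RB and E2F family. Foxm1 had 14.6, 25.7, 29.7 and 34.9 CPM in cycling cells of the libraries in turn, and 0.60 to 1.01 in other cells. Ckap4 was lower in cycling cells in all 4 libraries. Of the CDK inhibitors 4 of 8 were higher in all 4, with Cdkn3 and Cdkn2c the clearest, and Cdkn1a, which encodes p21, was lower in 3 of 4. Ccnd2 had 177, 155, 122 and 135 in cycling cells and 168, 149, 115 and 92.2 in others.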

How the data were processed

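Each library was deposited by the authors as a matrix of raw UMI counts, made with Cell Ranger on mm10 (version 7.1.0 in the submitters' processing notes and 7.0.1 in the file headers). How intronic reads were handled is not given in the sources used here. The cell filters of the study were applied to these counts: 100 genes and 1000 UMIs or more, 15% mitochondrial UMIs or less, and 0.8 or more for log10 genes divided by log10 UMIs. For doublets, artificial pairs (2 for each cell) were placed with the cells in 30 principal components of 2000 variable genes, and the highest scores, 1% per 1000 cells, were dropped.

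Classes were set by marker gates, with thresholds chosen after marker levels were seen. Cells with markers of 2 lineages (548) and without a gate (956) stayed in totals, and class names differ from the clusters of the study. The members, lists, gates and tests were chosen with earlier results of these data known. Shares used cells thinned to 2000 UMIs with a cut of 4. Counts summed per library and class were tested with edgeR 4.0.16 (filterByExpr, TMM, quasi-likelihood, threshold 0.05), with DESeq2 1.42.0 as an alternative, in R 4.3.3, in classes with at least 10 cells in every library. Standard errors were obtained by dividing the size of a log2 fold change by the root of its F statistic. Exact tests and thinning used Python 3.11.15 with scipy 1.17.1. In each test, called members (at most 8 per direction) and Mki67, Top2a, Pcna, Mcm5 and Tyms were named, and of other lists at most 4 called genes per direction. Replicate numbers did not pair libraries (correlation of deviations -0.05 to 0.12). On simulated counts, 55.0% (mast cells) to 86.5% (NK) of 200 genes given a log2 change of 2 were recovered. Of the genes called there, 1.75% (mDC) to 8.67% (αβT cells) were false calls. For cDC1s it was 8.14%, for all immune cells 5.14% and for Tregs 5.03%. In these and in αβT cells the false part thus lay above the threshold of 0.05. Gene coordinates are from GENCODE on GRCm38, and promoters from RefSeq. H2az1 is another symbol of the listed H2afz, so the 93 mitosis symbols stood for 92 genes.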

Additional observations from a re-analysis of the deposited data

Results flagged for a closer look

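The tumor effect differed between macrophages and αβT cells, by the interaction test, for Cdk6 (-2.06 on the log2 scale, macrophages minus αβT cells, edgeR adjusted p = 0.0369) and for Ccnd1 (3.05, edgeR adjusted p = 0.0317), the kinase and the cyclin that act together at the start of the cycle. None of the 42 members was called in that test.

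Pclaf and Stmn1 were called in opposite directions in different classes. Pclaf had a log2 fold change of 2.53 in cDC1s and 3.71 in NK cells and of -2.55 in ILC2-gated cells, and Stmn1 one of 1.52 in cDC1s and -2.50 in ILC2-gated cells. The differences between these classes were not tested. Tumor cells of the ILC2 gate held 2 and 0 UMIs of Pclaf and 7 and 4 of Stmn1, and control NK cells 0 and 3 of Pclaf.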

How the results depend on the processing

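The counts of called members, the shares of cycling cells and the S share were recomputed under other settings, and the split of the share only without Cenpa. Motif counts, detection and marker levels were not. The settings that leave out 1 library take the lone library to vary like those of the other group. The counts below carry no share of all genes called in the same setting. They show how far the calls moved and are no result about the members. Leaving out each library in turn gave 1 to 26 called members for all immune cells, 0 to 11 for macrophages, 0 to 7 for monocyte-like cells, 0 to 12 for cDC1s, 0 to 17 for cDC2s, 0 to 1 for mDCs, 0 to 34 for αβT cells, 1 to 13 for Tregs, 0 to 6 for NK cells, 1 to 4 for ILC2-gated cells, 0 to 1 for mast cells and 0 to 3 for the interaction. With no count filter there were 7 called members for all immune cells, 4 for macrophages, 9 for monocyte-like cells, 19 for cDC1s, 3 for cDC2s, 26 for αβT cells, 14 for Tregs, 12 for NK cells, 7 for ILC2-gated cells and 1 for the interaction. DESeq2 gave 9 for all immune cells, 3 for monocyte-like cells, 3 for αβT cells and 1 each for Tregs, NK cells and ILC2-gated cells. Without doublet removal there were 5 for Tregs and 0 for NK cells, and with at most 5% mitochondrial UMIs 0 for monocyte-like cells. With the replicate number as a block there were 3 for monocyte-like cells, 5 for αβT cells, 8 for Tregs, 8 for cDC1s and 6 for NK cells, although the numbers do not pair the libraries. The block moved no other count by more than 1.5 times. It was not run for the interaction, which has the library as a block already, and no block applies to the permutation tests. The causes of these moves were not tested.

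The log2 difference in the share of cycling cells was 1.12 for macrophages, 2.45 for monocyte-like cells, 1.54 for cDC1s and 1.35 for NK cells with all 42 members, and without thinning it was 1.95 for cDC1s, 0.14 for NK cells, 0.22 for ILC2-gated cells and 5.56 for monocyte-like cells, a fitted value that is no bound, since 0 cells were called in both control skins. For NK cells it was 0.14 with a cut of 3 UMIs, 0.073 without Cenpa and 0.31 with at most 5% mitochondrial UMIs, and for ILC2-gated cells 0.72 with a cut of 6 UMIs and 0.18 without Cenpa. Leaving out each library gave -0.055 to 1.01 for macrophages, 1.91 to 6.25 for monocyte-like cells, 1.60 to 2.73 for cDC1s, 0.11 to 1.32 for cDC2s, -0.52 to 1.23 for αβT cells, -0.53 to 0.26 for NK cells and -1.29 to 0.23 for ILC2-gated cells. Over all immune cells the difference in percentage points was 0.77 with a cut of 6 UMIs, 1.67 with all 42 members, 1.13 without thinning, 1.84 without Cenpa and -3.68 to 1.70 leaving out each library. The difference in the S share stayed between 7.25 and 10.4 percentage points in every setting. The alternative without Cenpa was chosen after seeing the data.

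Of named genes, log2 fold changes turned in sign when a library was left out for Top2a (-0.41 to 0.41) and Mki67 (-0.20 to 0.40) in all immune cells, Mcm5 in macrophages (-0.19 to 2.02), Pcna in monocyte-like cells (-0.063 to 0.24), Mcm5 (-0.69 to 0.45), Tyms (-1.17 to 0.56) and Top2a (-0.64 to 0.76) in cDC2s, Pcna in mDCs (-0.27 to 0.59), Top2a (-0.45 to 1.03) and Mki67 (-0.17 to 1.03) in αβT cells, Pcna in Tregs (-0.14 to 0.25), Mki67 in ILC2-gated cells (-0.46 to 0.45), Pcna in neutrophils (-0.23 to 0.80), Top2a in mast cells (-0.39 to 1.61), and Mcm5 (-1.89 to 0.48), Pcna (-0.18 to 0.23), Top2a (-0.041 to 0.55) and Mki67 (-0.36 to 0.38) in the interaction. In cDC2s DESeq2 gave -0.0049 for Mcm5 and -0.028 for Tyms, and the replicate block -0.026 and -0.19. With no filter Mki67 was -0.0081 in ILC2-gated cells and Pcna and Mki67 were 0.060 and 0.040 in the interaction, where Mki67 was 0.016 without doublet removal. None of these genes was called with all 4 libraries.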
